A study of Mus musculus with 13 samples.

Results

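The mRNA levels of 38 genes of protein folding and the unfolded protein response in the endoplasmic reticulum (ER) were examined in mouse liver. The genes are a list of symbols drawn up for their known roles, with earlier results of these data known. No threshold on a measured value was used beyond being listed in the liver table, which held 11779 genes. Symbols absent from it were to be dropped, so finding all 38 there does not show what its filter on low counts removed. The livers came from Balb/c mice injected with antisense oligonucleotides (ASOs) conjugated to N-acetylgalactosamine (GalNAc), a sugar that directs uptake into hepatocytes. The LL35 ASO group (3 mice) received a mix of ASOs (5 by the labels, although the study's list of ASOs for mice is shorter) against the long non-coding RNA LL35, also named Falcor, the Luc ASO group (3 mice) received a control ASO against firefly luciferase, and livers were taken on day 5. Both groups had therefore received a GalNAc-conjugated ASO, and no untreated liver was among the samples. The 7 libraries from AML12 cells, a hepatocyte line, were not analysed here.

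The level used is the authors' mean over the liver libraries of RLE-normalized read counts, 1 value per gene. Since this mean pools both groups, it shows how strongly each gene was represented in these livers and not how LL35 knockdown changed it. The LL35 ASO and Luc ASO groups were not compared, and no spread between mice could be computed. Levels of different genes are given per kilobase of exon, and differences between them are descriptions whose error is unknown. The depth of the libraries is unknown as well. Over all listed genes with an exon length (11754), the median level was 51.5 normalized counts per kilobase, and the quartiles were 20.7 and 128.5. Of the 6 hepatocyte markers checked, all were listed, between 2550 for Hnf4a and 519843 normalized counts per kilobase for Alb. Markers of Kupffer, endothelial and stellate cells (5 of 5 each) were listed too, at no more than 791 per kilobase, as were 2 of 5 cholangiocyte and 2 of 5 B and plasma cell markers, at no more than 149 per kilobase, and 0 of 5 markers of pancreatic acinar cells. The levels below are therefore those of a whole tissue, in which fewer cells of a type and less RNA per cell cannot be told apart.

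Hepatocytes secrete most plasma proteins, and these proteins enter the ER, are folded by chaperones, receive disulfide bonds and leave for the Golgi. Proteins that fail to fold are returned to the cytosol and degraded. When unfolded proteins accumulate, the sensors IRE1, PERK and ATF6 signal to the nucleus, and the factors XBP1 and ATF6 raise the transcription of chaperone and degradation genes by binding short promoter sequences such as the ER stress response element (ERSE).

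The ERSE is made of CCAAT and CCACG separated by 9 bases. It was searched, on both strands, in promoter windows from RefSeq (build GRCm38.p6) that run from 250 bases before to 50 bases after the start of a gene. Windows were found for 32 of the 38 genes. The 6 without a window were Atf6, Derl1, Hyou1, Manf, Sec61a1 and Ssr2. An exact ERSE was present in 10 of the 32 genes (31.2%), against 18 of 9335 listed genes with a window (0.193%) and 39 of all 32851 windows (0.119%). The 10 genes were Hspa5, Hsp90b1, Calr, Canx, Dnajc3, Creld2, Pdia6, Syvn1, Ero1b and Derl3. They made up 55.6% of the 18 listed genes that hold the element. The 38 genes were listed for roles in the response that acts through such elements, so these shares are not independent of that choice. Hsp90b1 was the gene with more than 1 exact copy. Copies that depart from these letters or this spacing were not counted, so a gene with 1 exact match may hold further variants.

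The promoter of Hspa5, which encodes the ER Hsp70 chaperone BiP, is shown because this gene is the textbook target of the element. The bases before its start, with CCAAT and CCACG of the ERSE and a match of the unfolded protein response element (UPRE) core in capitals, were as follows.
Hspa5 promoter, chr2:34771840-34772089, plus strand: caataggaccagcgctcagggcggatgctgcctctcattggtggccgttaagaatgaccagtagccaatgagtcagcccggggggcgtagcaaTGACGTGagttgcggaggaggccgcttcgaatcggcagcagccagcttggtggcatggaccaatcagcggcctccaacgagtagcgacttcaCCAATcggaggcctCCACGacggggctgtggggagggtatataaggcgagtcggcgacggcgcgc

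The ERSE matches are shown together so that their spacers can be compared. Each is written in the direction in which CCAAT comes first, with 10 bases on either side and with CCAAT and CCACG in capitals. The last line is the match in Herpud1 of the related ERSE-II, which is made of ATTGG and CCACG separated by 1 base.
Hspa5 ERSE, chr2:34772015-34772053, plus strand: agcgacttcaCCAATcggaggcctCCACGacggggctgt
Hsp90b1 ERSE, chr10:86705628-86705666, minus strand: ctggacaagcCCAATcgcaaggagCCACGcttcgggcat
Hsp90b1 ERSE, chr10:86705523-86705561, plus strand: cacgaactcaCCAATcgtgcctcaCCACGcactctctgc
Calr ERSE, chr8:84847065-84847103, plus strand: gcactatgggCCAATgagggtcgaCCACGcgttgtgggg
Canx ERSE, chr11:50325790-50325828, minus strand: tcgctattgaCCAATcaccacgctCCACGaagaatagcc
Dnajc3 ERSE, chr14:118937817-118937855, plus strand: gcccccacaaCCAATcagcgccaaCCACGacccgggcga
Creld2 ERSE, chr15:88819510-88819548, minus strand: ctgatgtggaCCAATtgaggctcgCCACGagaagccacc
Pdia6 ERSE, chr12:17266481-17266519, plus strand: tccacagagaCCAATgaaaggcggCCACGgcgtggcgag
Syvn1 ERSE, chr19:6046522-6046560, plus strand: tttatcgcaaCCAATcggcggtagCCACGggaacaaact
Ero1b ERSE, chr13:12565672-12565710, minus strand: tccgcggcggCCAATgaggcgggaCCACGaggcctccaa
Derl3 ERSE, chr10:75893232-75893270, minus strand: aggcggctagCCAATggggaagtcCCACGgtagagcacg
Herpud1 ERSE-II, chr8:94386367-94386397, plus strand: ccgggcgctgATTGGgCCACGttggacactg

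The 11 ERSE matches lay between 212 and 26 bases upstream of the start, 6 of them in the direction of the gene and 5 in the opposite direction. Between CCAAT and CCACG, 6 or 7 of the 9 spacer bases were G or C in every one of these matches. ERSE-II was found in Herpud1, 52 to 42 bases upstream, and in Dnajb11, from 7 to 17 bases after the start, so in 2 of 32 genes (6.25%) against 0.0964% of listed genes with a window. The UPRE core, TGACGTG, was found in Hspa5 and Vcp (6.25%) against 3.25% of listed genes. In all, 13 of the 32 genes held at least 1 exact match of these elements and 19 held none. Among those without were P4hb, Pdia3, Pdia4, Xbp1 and Ern1, of which Pdia3 and Pdia4 held an ERSE when 1 mismatch was allowed. The median GC content was 63.0% in the windows of the 32 genes and 60.7% in those of all listed genes. A match is a description of the letters in this window and does not show that a factor bound there.

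**Figure D1:**
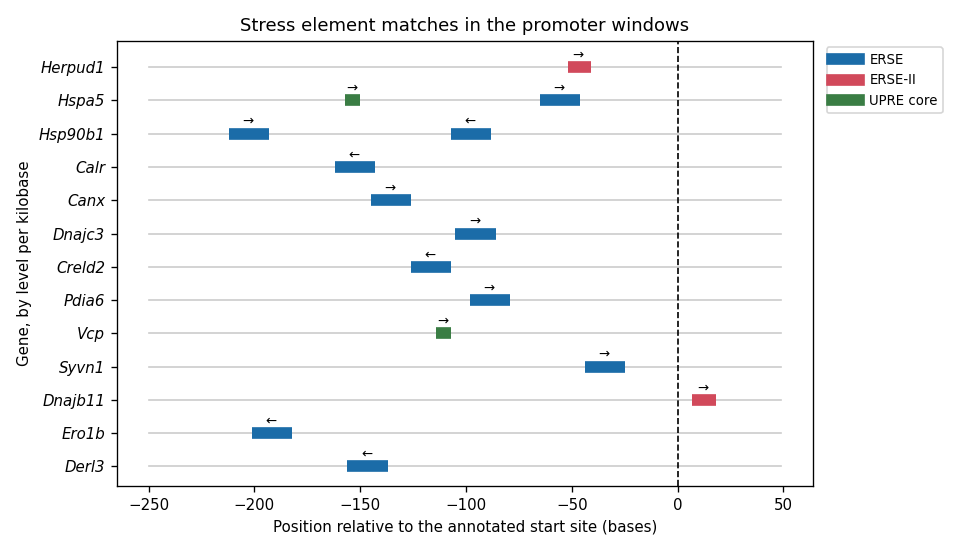
Positions of ERSE (blue), ERSE-II (red) and UPRE core (green) matches in the promoter windows of the 13 genes that hold any, in bases from the annotated start (dashed line), with genes ordered from the highest level per kilobase at the top. Arrows give the direction of the match relative to the gene, and the 11 ERSE matches lie from 212 to 26 bases upstream.

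The 38 genes stood high among the genes of these livers. Their median level was 395.7 normalized counts per kilobase, which is 7.69 times the median of all listed genes and lies at percentile 91.3 of them. Of the 38 genes, 37 were above the median of all listed genes, 31 were above the upper quartile and 9 (23.7%) were among the highest 5%. The single gene under the median was Derl3. With the coding length 36 genes were above the median of all listed genes (162 per kilobase), and Eif2ak3, with 120.1, was below it too. Levels spanned 195-fold from Derl3 to Herpud1, and 50.8-fold without Derl3. The 5 highest genes, Herpud1, P4hb, Hspa5, Hsp90b1 and Calr, held 51.6% of the summed level per kilobase. Together the 38 genes took 0.978% of all normalized counts in the table, of which Alb alone took 10.8%.

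**Figure D2:**
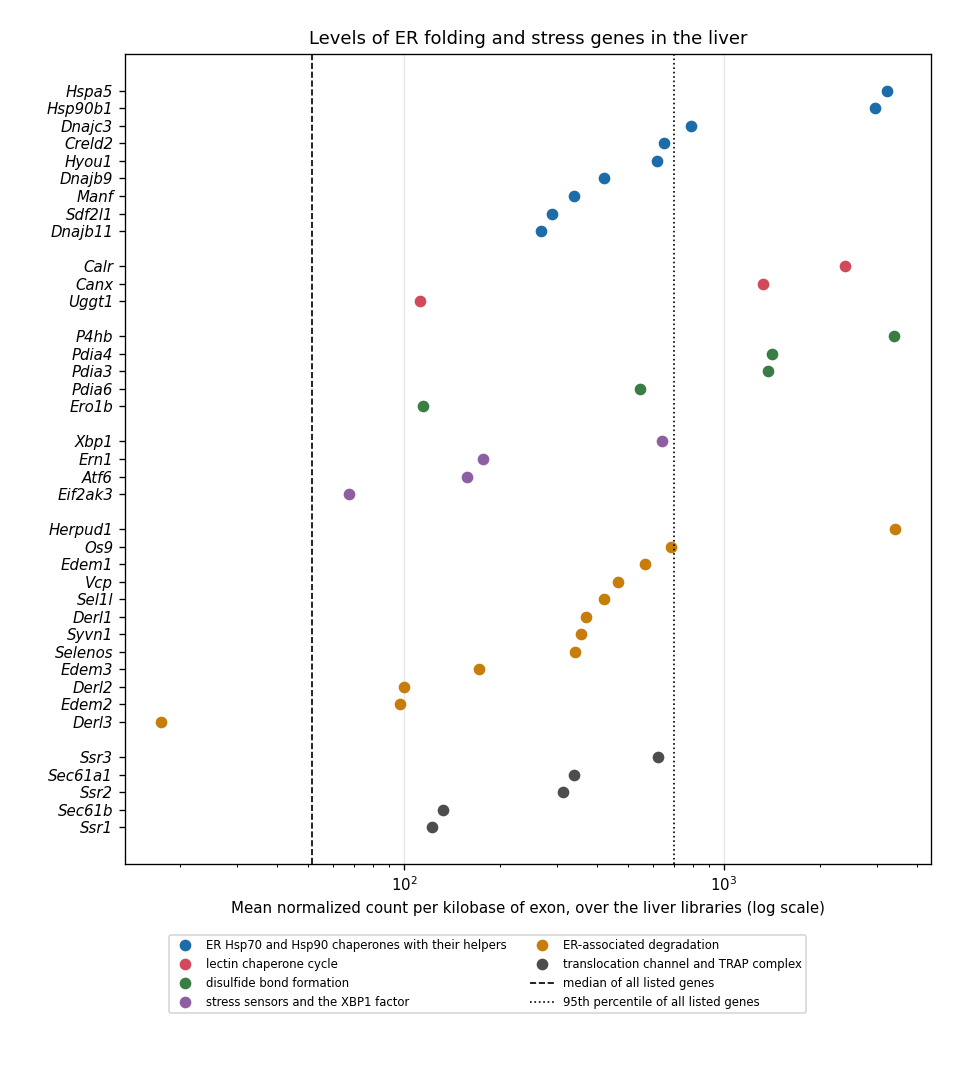
Level of each of the 38 genes in the liver, in mean normalized counts per kilobase of exon on a log axis, grouped by role, with 1 point per gene and no error because the values are means over both groups. The dashed line is the median of all listed genes (51.5) and the dotted line their 95th percentile (697), and Derl3 is the gene to the left of the dashed line.

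The chaperones of the Hsp70 and Hsp90 families and their helpers were led by their central members. Hspa5 had a mean normalized count of 13659, or 3230 per kilobase, and ranked 130 among all listed genes by level per kilobase. Hsp90b1, which encodes the ER Hsp90 GRP94, had 11925, or 2957 per kilobase. The ratio of Hspa5 to Hsp90b1 was 1.09 per kilobase of exon. With the longest transcript this ratio was 1.005, and with the coding length 1.40. In the exons of Hsp90b1, 10.3% of the bases overlap a gene on the opposite strand, and reads of the overlap could belong to either gene if counting ignored strand. A further 5.38% of the bases overlap genes on the same strand, whose reads cannot be told apart by strand.

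J-domain proteins deliver clients to BiP and start its ATP hydrolysis. Dnajc3, encoding P58IPK, had the highest level of the 3 examined, 787 per kilobase from a mean normalized count of 4043. Dnajb9, encoding ERdj4, had 421 per kilobase, and Dnajb11, encoding ERdj3, had 269. Per kilobase, Hspa5 was thus 4.11, 7.67 and 12.0 times as high as these genes. With the coding length these ratios fell to 2.60, 4.31 and 8.58, while the order of the J-protein genes held with each of the lengths tried. Sdf2l1, whose product works with ERdj3, had a mean normalized count of 321 and 290 per kilobase. It was above Dnajb11 per kilobase of exon and below it with the longest transcript (290 against 346) and the coding length (484 against 810.0).

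Hyou1 encodes GRP170, a large Hsp70 relative that exchanges the nucleotide of BiP, and had 619 per kilobase, so Hspa5 was 5.22 times as high. Manf and Creld2 encode small proteins that are induced by ER stress and partly secreted. Creld2 had 649 per kilobase and Manf 339. The order of this pair depended on the length used: the ratio of Manf to Creld2 was 0.522 per kilobase of exon and 2.17 per kilobase of coding sequence.

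The lectin chaperones bind sugar chains on folding glycoproteins. Calr, encoding the soluble calreticulin, had a mean normalized count of 6898, or 2395 per kilobase. Canx, encoding the membrane-bound calnexin, had 6236, or 1329 per kilobase. Calr was 1.80 times as high as Canx, and between 1.57 and 2.17 times as high over the lengths tried. The annotation also holds a processed pseudogene of calreticulin, Calr-ps, so the count of Calr may be affected by it. Only pseudogenes named by a symbol of the 38 genes with the ending -ps were looked for, so others may exist. Uggt1 encodes the enzyme that puts glucose back on misfolded glycoproteins so that they bind the lectins again. Its mean normalized count of 1438 came from the longest exon union of the 38 genes (12.9 kilobases) and gave a level of 112 per kilobase, and Canx was 11.9 times as high.

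Disulfide bonds are made by the protein disulfide isomerases, which are oxidized again by the ERO1 enzymes. P4hb, encoding the founding member PDI, had a mean normalized count of 9717, or 3396 per kilobase. It ranked 2 among the 38 genes per kilobase of exon, 4 with the longest transcript and 2 with the coding length. Pdia4 followed with 1411, Pdia3 with 1369 and Pdia6 with 548 per kilobase. PDIA3 (ERp57) acts with calnexin and calreticulin. Per kilobase of exon, its gene stood beside Canx (1369 against 1329) and below Calr (2395). With the coding length Pdia3 (2837) was below both Canx (3517) and Calr (5527). Pdia3 and Pdia4 differed by less than the choice of length moved them: the ratio of Pdia3 to Pdia4 was 0.970 per kilobase of exon and 1.61 per kilobase of coding sequence. Ero1b had 114 per kilobase, so P4hb was 29.7 times as high. With the longest transcript or the coding length, this ratio was 18.9 or 13.8. The related oxidase gene Ero1a had 48.8 per kilobase.

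Per kilobase of exon, the genes of the 3 sensors stood below each of the 9 genes of the Hsp70 and Hsp90 chaperones and their helpers. With the coding length Atf6 (738) stood above Sdf2l1 (484). Ern1, encoding IRE1 alpha, had 177 per kilobase, Atf6 had 157, and Eif2ak3, encoding PERK, had 67.2, the second lowest of the 38. Their mean normalized counts were 1445, 1453 and 405. Eif2ak3 was the lowest sensor with each of the lengths, whereas Ern1 and Atf6 changed places with the coding length, where the ratio of Atf6 to Ern1 was 1.55 in place of 0.890. Xbp1, whose mRNA is spliced by IRE1 to give the active factor, had 638 per kilobase, and was 3.61 times as high as Ern1. The counts are per gene, so spliced and unspliced Xbp1 mRNA were not separated.

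ER-associated degradation returns misfolded proteins to the cytosol. Its 12 genes had a median of 363 per kilobase and the widest range of the 6 roles, since they held both the highest and the lowest of the 38 genes. Herpud1, encoding a short-lived membrane protein that organizes the degradation complex, had a mean normalized count of 7961, or 3412 per kilobase. Its level stood 9.58 times above that of Syvn1, the gene of the ubiquitin ligase HRD1 (356 per kilobase), and 8.09 times above that of Sel1l, the gene of the HRD1 partner SEL1L (422 per kilobase). With the coding length these ratios were 6.39 and 3.99.

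Substrates are marked and selected by the EDEM mannosidases and the lectin OS9. Edem1 had a mean normalized count of 3655 and 566 per kilobase, Edem3 had 1094 and 171, and Edem2 had 337 and 97.4. This order held with each of the lengths. Os9 had 1799 normalized counts and 684 per kilobase. The derlins are membrane proteins of the exit channel, and their genes were ordered Derl1 (370), Derl2 (100) and Derl3 (17.5 per kilobase), again with each of the lengths. Derl3 had a mean normalized count of 34.8, at percentile 21.3 of the listed genes by level per kilobase, although its promoter window holds an ERSE. Selenos, encoding a selenoprotein that links derlins to the ATPase p97, had 342 per kilobase. Vcp, the gene of p97, had 466 per kilobase, and its order against Os9 changed with the length.

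Proteins enter the ER through the SEC61 channel, next to which the translocon-associated protein (TRAP) complex sits. Sec61a1, the gene of the channel itself, had 340 per kilobase and Sec61b, the gene of its small beta subunit, had 132. Of the TRAP genes, Ssr3 had 621 per kilobase, Ssr2 had 314 and Ssr1 had 122, from mean normalized counts of 2589, 586 and 1275. The products are subunits of shared complexes, yet Ssr3 was 5.08 times as high as Ssr1. Ssr1 has an exon union of 10431 bases with a coding length of 1062, and with the coding length the ratio of Ssr3 to Ssr1 was 3.59 and Ssr1 stood above Ssr2. In Ssr2, 12.8% of the exon bases overlap a gene on the opposite strand, the highest share of the 38.

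By role, the median level was 1369 per kilobase for disulfide bond formation, 1329 for the lectin cycle and 619 for the Hsp70 and Hsp90 chaperones with their helpers. It was 363 for ER-associated degradation, 314 for translocation and 167 for the sensors with Xbp1. With the longest transcript and with the coding length, the lectin cycle stood above disulfide bond formation and translocation above degradation. The roles overlapped widely in the levels of single genes: Uggt1 and Ero1b, both in the roles with the highest medians, were lower than Ern1, Atf6 and Xbp1.

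Members with an ERSE had a median of 718 per kilobase (10 genes, from 17.5 to 3230), and those with a window and no exact ERSE had 382 (22 genes, from 67.2 to 3412). The ranges overlapped. Herpud1 and P4hb, the 2 highest of the 38 genes per kilobase of exon, had no exact ERSE, although Herpud1 holds an ERSE-II. Hspa5, which has an exact ERSE, ranked 2 with the longest transcript and 1 with the coding length. The 22 genes also include Dnajb11, which holds an ERSE-II, and genes with an ERSE when 1 mismatch was allowed. The 2 medians therefore do not compare genes with and without any stress element.

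**Figure D3:**
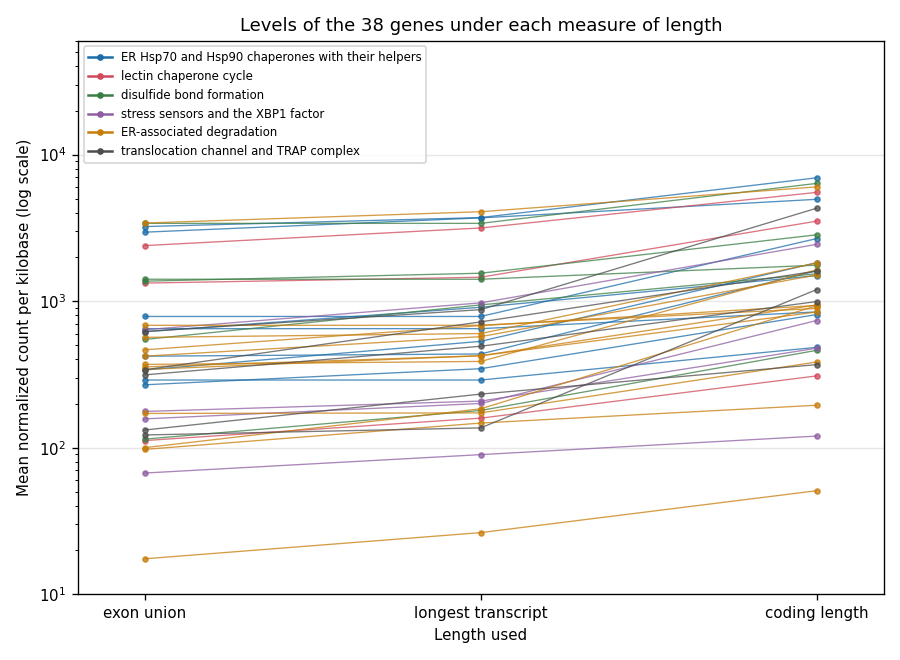
Level of each of the 38 genes per kilobase on a log axis, with the exon union, the longest transcript or the coding sequence as the length, and with 1 line per gene coloured by role. The highest 5 genes stay at or above 2395 per kilobase and Derl3 stays lowest under each length, while lines in the middle cross.

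Other genes of the ER were described from a list of 89, of which 87 were listed and 86 had an exon length. Their median was 145.8 per kilobase, at percentile 77.8 of all listed genes, and 65 of the 86 were above the median of all listed genes. The highest of them was Creb3l3, the gene of a liver-enriched ER-bound transcription factor, with 1252 per kilobase, and Tram1, the gene of a translocation helper, had 648. The 3 lowest were Uggt2 with 3.73, Tmem67 with 6.38 and Creb3l1 with 6.40 per kilobase. Uggt2 thus stood far below its relative Uggt1. Glycosylation and glycan trimming genes had a median of 225 (15 genes), signal peptide handling and translocation 162 (18), other degradation genes 144 (18), other disulfide and proline isomerase enzymes 114 (18) and signalling genes downstream of the sensors 63.9 (17).

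**Figure D4:**
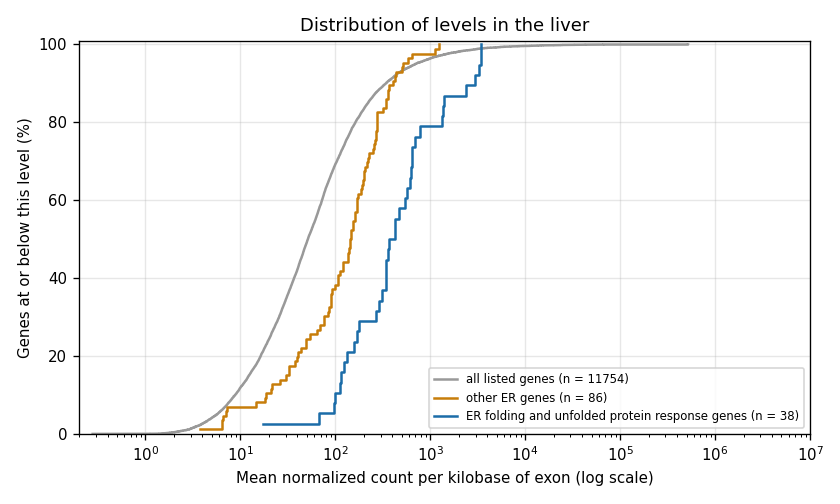
Cumulative share of genes by level per kilobase on a log axis, for all 11754 listed genes with an exon length (grey), 86 other ER genes (orange) and the 38 ER folding and unfolded protein response genes (blue). The medians are 51.5, 145.8 and 395.7, so the blue curve crosses the middle of the plot farthest to the right.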

How the data were processed

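RNA from liver was depleted of rRNA, made into directional libraries and sequenced as single reads, and the authors aligned reads with STAR 2.5.3a, counted them per Ensembl gene and normalized the counts by the RLE method of DESeq2. The genome build was not given in the sources used here. The table deposited by the authors holds 1 signal per gene, its normalized count averaged over the libraries compared (from 15.6 upwards). Its other value columns hold the authors' own comparison of Luc ASO with LL35 ASO (a fold change, its error, a test statistic and p-values), and were not used. Symbols were matched to the table as written.

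Levels were divided by the exon union of GENCODE M21 (GRCm38) with Python 3.11.15, numpy 2.4.6 and pandas 2.3.3. Plots were drawn with matplotlib 3.10.9. No test was made, since 1 pooled value per gene gives neither a spread nor a depth per sample. The setting in which STAR counted strand was not given. The search for the exact ERSE was tested on simulated sequences of A and T, and planted copies were recovered on both strands. The searches for ERSE-II, the UPRE core and the ERSE with 1 mismatch were not tested in this way. All 38 genes were named, as were the 3 highest and 3 lowest of the other ER genes, of which 1 is not reported here. The genes, the lists, their roles and the elements were chosen with earlier results of these data known. Alternatives changed the length, the background genes, the matching and the motif.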

Additional observations from a re-analysis of the deposited data

How the results depend on the processing

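The 38 genes kept their place among all listed genes under each alternative tried: the median stood at percentile 89.7 among genes that averaged 50 or more normalized counts, 91.4 among protein-coding genes, 91.2 without division by length, 92.0 with the longest transcript and 91.6 with the coding length (main value 91.3). The levels themselves depend on the length. With the longest transcript, the median of the 38 genes was 552 per kilobase, and by role 649 for the Hsp70 and Hsp90 chaperones, 1457 for the lectin cycle, 1411 for disulfide bond formation, 204 for the sensors with Xbp1, 424 for degradation and 493 for translocation. With the coding length, chosen after seeing the data, these medians were 1347, 1612, 3517, 1761, 608, 933 and 1200. Thus the lectin cycle passed disulfide bond formation and translocation passed degradation under both. Of 41 pairs of genes chosen for comparison, 6 changed order with the length. They were Hspa5 and P4hb, Atf6 and Ern1, Vcp and Os9, Ssr1 and Ssr2, Pdia3 and Pdia4, and Manf and Creld2. Pairs outside these 41 changed order too, such as Sdf2l1 and Dnajb11. With 1 mismatch allowed in the ERSE, 16 of the 32 genes held it, against 2.34% of listed genes with a window. Matching by Ensembl identifier found 37 of the 38 genes, since Ero1b has an older symbol in the annotation. A retrieval signal search and a length from RefSeq proteins were not run, since protein sequences were not used here. No paired analysis was possible because the levels are means over both groups, and for the same reason no replicate could be left out. The depth of the libraries is unknown and sets no limit that could be stated.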

Other observations

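Some of these genes have a neighbour whose transcription starts close by in the other direction. Within 1000 bases upstream, 4 of the 38 genes (10.5%) had a protein-coding start on the opposite strand, against 1169 of 11370 listed protein-coding genes (10.3%), so this was about as frequent as elsewhere. In each of the 4 pairs the ER folding gene was the higher one per kilobase of exon. With 37 of the 38 genes above the median of all listed genes, this was likely beforehand. The same share was not computed for the pairs of other genes. Hsp90b1 was 138 times as high as Ttc41 and Creld2 9.72 times as high as Alg12. Dnajb11 was 5.15 times as high as Tbccd1 and Sec61b 2.05 times as high as Alg2. By mean normalized count the other pairs kept this order, but Sec61b was below Alg2 (168 against 222).

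Creld2 and Alg12 start 328 bases apart, and the ERSE counted for Alg12 is the same site as that of Creld2 (chr15:88819520-88819538, GRCm38.p6). It lies 126 to 108 bases upstream of Creld2 and 220 to 202 bases upstream of Alg12, the gene of a mannosyltransferase that builds the sugar donor of N-glycosylation. Alg12 had 66.8 normalized counts per kilobase. The other listed genes with an exact ERSE outside the 38, named after their values were seen, were Acnat2, Hnrnpa3, Acacb, Pan2, Xlr3a, Adcy3 and Spats2l, from 1198 per kilobase for Acnat2 to 2.98 for Spats2l.

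In the exon models, 26 of the 38 genes shared no exon base with another gene, and 11 overlapped a gene on the opposite strand.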
